A study of Mus musculus with 7 samples.

Results

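The T cell marker genes comprise Cd3d, Cd3e, Cd3g, Cd4, Cd8a, Il7r, Bcl11b, Lck, Cd2 and Cd28. They were taken as the probe sets with 1 of these symbols and no other, which gave 1 probe set each for 9 of the 10 genes, of 22180 genes with a single symbol on the array. Lck was not analysed here. The levels come from spleen monocytes of 2 mice on 7 Affymetrix Mouse Gene 2.0 ST arrays, in 5 groups. Both mice gave an unstimulated sample and a sample stimulated for 3 h with HL7G at 400 ng/ml (n = 2 each), a monoclonal antiphospholipid antibody of the kind studied in antiphospholipid syndrome. Mouse 1 alone gave samples with R848 at 2 µg/ml, CpG B at 2.5 µM and poly I:C at 1 µg/ml (n = 1 each), which are agonists of the nucleic acid sensing receptors TLR7, TLR9 and TLR3. The cells of every group were wild type for EPCR, a receptor for protein C. The sources used here do not give strain, sex, age or the way the monocytes were selected, and an IgG condition named in the protocol was not analysed here.

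T cells recognise antigen through a receptor whose signal is carried into the cell by the CD3 chains and started by the kinase encoded by Lck, held near the receptor by the coreceptors CD4 and CD8. CD28 and CD2 add costimulation and adhesion, the IL-7 receptor keeps resting T cells alive, and Bcl11b holds the T lineage programme in place. Some of these genes are also active outside T cells: splenic dendritic cell subsets carry CD4 or CD8 alpha, NK cells carry CD2, and innate lymphoid cells carry the IL-7 receptor. In the spleen T cells lie beside the B cells and myeloid cells from which monocytes are selected.

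The 3 CD3 genes lie close together, and they and Il7r had the largest differences among the markers, so the 250 bases upstream of their starts are shown. RefSeq starts (assembly GRCm38.p6) of Cd3g and Cd3d are 1355 bases apart and point away from each other, and that of Cd3e lies 27825 bases from that of Cd3d. The windows are chr9:44980432-44980681 (minus strand), chr9:44981536-44981785 (plus strand), chr9:45009612-45009861 (minus strand) and chr15:9529877-9530126 (minus strand), written 5′ to 3′ on the strand of the gene. Capitals mark every match of an E-box, CAGGTG or its complement CACCTG, of the kind bound by E proteins of lymphocyte development, and of an ETS core, GGAAGT or its complement ACTTCC. These motifs do not overlap here.
Cd3g: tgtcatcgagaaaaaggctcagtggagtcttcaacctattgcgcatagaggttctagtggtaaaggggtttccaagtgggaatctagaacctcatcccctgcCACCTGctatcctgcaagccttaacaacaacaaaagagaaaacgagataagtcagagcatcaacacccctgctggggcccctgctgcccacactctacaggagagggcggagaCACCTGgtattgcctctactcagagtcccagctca
Cd3d: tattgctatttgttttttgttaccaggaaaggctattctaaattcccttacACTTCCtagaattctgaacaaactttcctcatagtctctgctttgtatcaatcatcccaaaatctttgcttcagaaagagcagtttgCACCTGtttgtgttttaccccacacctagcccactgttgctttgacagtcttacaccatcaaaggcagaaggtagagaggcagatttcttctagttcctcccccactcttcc
Cd3e: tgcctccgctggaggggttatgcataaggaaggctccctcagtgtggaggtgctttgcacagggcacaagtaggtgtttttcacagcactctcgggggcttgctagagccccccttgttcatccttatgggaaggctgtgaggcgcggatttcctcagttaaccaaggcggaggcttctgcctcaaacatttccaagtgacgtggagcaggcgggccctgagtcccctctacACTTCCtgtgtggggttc
Il7r: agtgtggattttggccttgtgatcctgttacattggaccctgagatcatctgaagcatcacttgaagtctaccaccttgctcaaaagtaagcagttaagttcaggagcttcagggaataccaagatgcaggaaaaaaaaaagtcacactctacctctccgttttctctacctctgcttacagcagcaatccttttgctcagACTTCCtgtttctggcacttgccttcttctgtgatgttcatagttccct
Cd3g held an E-box starting 148 and another starting 35 bases before its start, and Cd3d held 1 E-box at 112 and 1 ETS core at 199 bases. Cd3e held an ETS core at 18 bases and Il7r 1 at 49 bases. Of 32851 such windows in the RefSeq promoter table, 17.2% held the E-box and 19.7% the ETS core, so either match is common. A match describes the letters only.

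T cell markers were higher on both HL7G arrays than on both unstimulated arrays in all 8 tested members, and 6 of these 8 passed the test (Cd3d, Cd3e, Cd3g, Il7r, Bcl11b and Cd2). A gene was tested if it reached a log2 level of 5 on at least 1 array, and called at an adjusted p under 0.05 in limma over 11119 genes. Of all genes tested, 16.3% were called higher in this comparison and 1.89% lower, and 40.6% had both HL7G arrays above both unstimulated ones. Higher calls were 1814 of 2024 here, 1372 of 1997 after cyclic loess on the tested genes and 1394 of 2421 after their quantile normalization. Cd3g, Il7r and Cd2 lay under 5 on both unstimulated arrays and entered the test only through stimulated ones, so the count of 6 describes the members that could be tested. The median difference of the tested members was 1.22 on the log2 scale, beside 0.06 over all genes tested. Brighter genes had a higher background. When only the 1337 genes averaging 6 or more were tested, their median was 0.86 and 31.2% were called higher. The 2 markers among them, Cd3d and Il7r, had a median of 2.24. The gene lists below were set beside 0.06 and 16.3% without matching on level. Cd28 did not reach 5 on any array and so had no test. In bulk RNA a higher share of T cells and more of a transcript per cell cannot be told apart.

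The CD3 chains, which form the signalling part of the T cell receptor complex, differed most between HL7G and unstimulated samples among the members other than Il7r. Cd3g, the gamma chain, had log2 levels of 4.52 (mouse 1) and 4.82 (mouse 2) without a stimulus, 6.90 and 6.68 with HL7G, 5.60 with R848, 5.80 with CpG B and 5.11 with poly I:C. The HL7G arrays stood apart above every other array, by a wider gap than that between the mice. Cd3g rose 4.34-fold with HL7G (log2 difference 2.12 ± 0.23 SE, n = 2 against 2, adjusted p = 0.0120 in limma). Cd3d, the delta chain, read 4.86 and 5.54 unstimulated, 7.31 and 6.92 with HL7G, 6.56 with R848, 5.93 with CpG B and 6.28 with poly I:C. Its unstimulated arrays differed by 0.68 between the mice, and all stimulated arrays lay above both. Cd3d rose 3.77-fold (1.91 ± 0.30, adjusted p = 0.0127 in limma). Cd3e, the epsilon chain, pairs with both others in the complex. It read 4.82 and 5.02 unstimulated, 6.47 and 6.08 with HL7G, 5.16 with R848, 5.53 with CpG B and 5.55 with poly I:C. Cd3e rose 2.56-fold (1.36 ± 0.24, adjusted p = 0.0156 in limma), with no overlap between the groups.

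**Figure D1:**
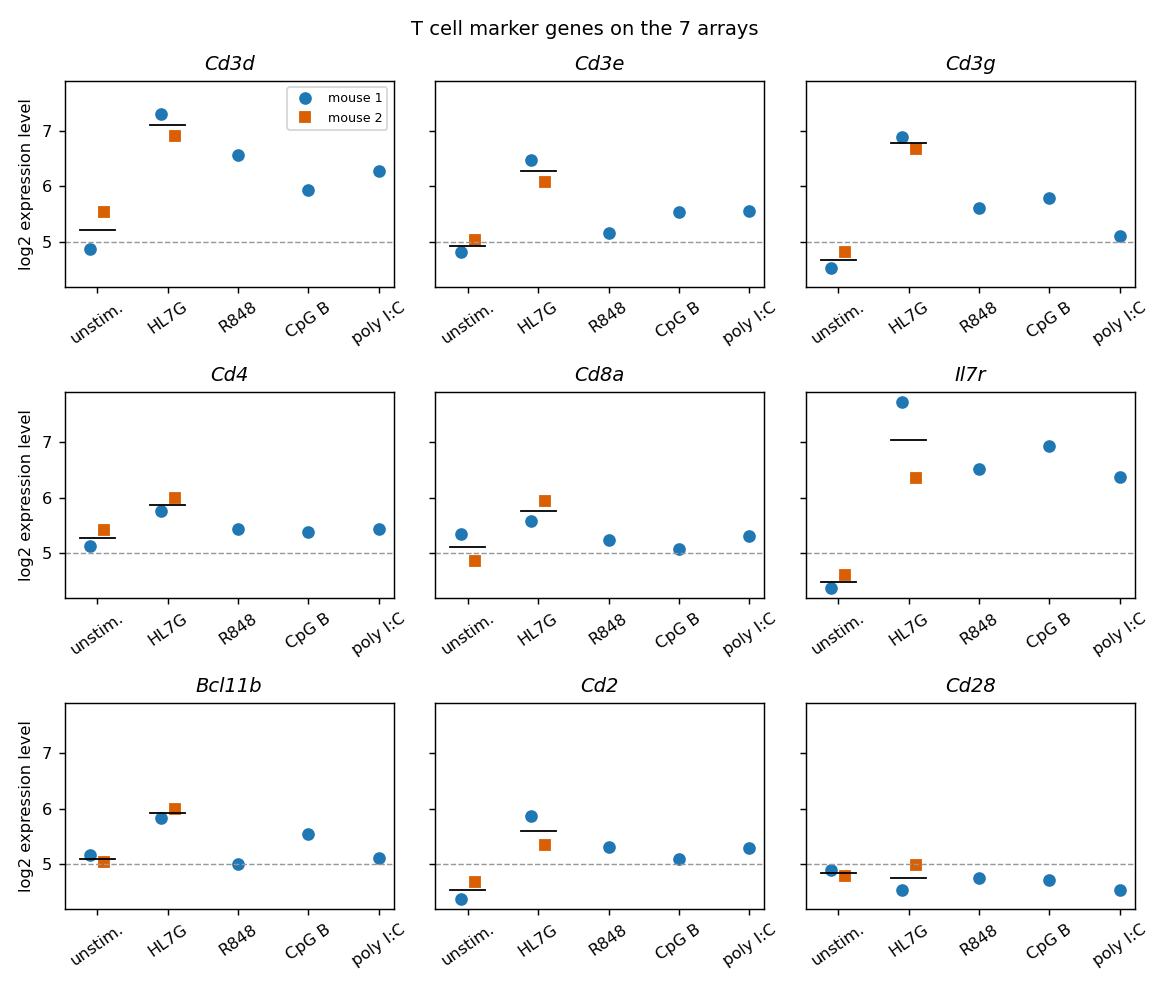
Log2 expression level (vertical axis) of the 9 T cell marker genes with a probe set, by treatment group (horizontal axis), with 1 point per array, mouse 1 as circles and mouse 2 as squares. Short lines are means of the 2 groups with n = 2 and the dashed line is the level of 5 needed for testing. Cd3g lies at 6.68 or above on the HL7G arrays and at 5.80 or below elsewhere, Il7r is above 6 on all 5 stimulated arrays, and Cd28 stays below the dashed line.

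The coreceptors showed smaller differences that did not pass the test. Cd4, the coreceptor for MHC class II, read 5.12 and 5.42 unstimulated, 5.76 and 5.99 with HL7G and 5.38 to 5.43 with the agonists. The agonist arrays lay at or near the higher unstimulated one, and the HL7G arrays lay above both groups. Its HL7G difference was 0.60 (95% interval 0.06 to 1.15, adjusted p = 0.109 in limma). Cd8a, the alpha chain of the coreceptor for MHC class I, read 5.34 and 4.86 unstimulated, 5.58 and 5.94 with HL7G and 5.07 to 5.30 with the agonists. The agonist arrays lay between the unstimulated ones. The HL7G difference of Cd8a was 0.66 (95% interval 0.04 to 1.28, adjusted p = 0.121 in limma), made of 0.24 in mouse 1 and 1.08 in mouse 2. The widths of these intervals leave room for a change of 2-fold as well as for almost none.

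Il7r, the alpha chain of the IL-7 receptor, had the widest range of the members and was high with every stimulus. It read 4.35 and 4.59 unstimulated, 7.74 and 6.36 with HL7G, 6.52 with R848, 6.94 with CpG B and 6.38 with poly I:C. Both unstimulated arrays lay far below the other 5, while the HL7G arrays differed by 1.38 between the mice and lay on either side of the agonists. Il7r rose 5.96-fold with HL7G (2.58 ± 0.43, adjusted p = 0.0139 in limma). The differences for R848, CpG B and poly I:C were 2.05, 2.46 and 1.90 (SE 0.53 each). They did not pass the test in the main setting (adjusted p = 0.102, 0.216 and 0.434 in limma). After quantile normalization of the tested genes, Il7r was called with R848 (1.81, adjusted p = 0.0327 in limma) and with CpG B. Leaving out either HL7G array leaves the spread to the unstimulated pair. The 3 agonist differences of Il7r use no HL7G array, so only whether they passed could change there.

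Bcl11b and Cd2 rose less. Bcl11b, the transcription factor of T lineage commitment, read 5.16 and 5.03 unstimulated, 5.83 and 6.002 with HL7G, 4.99 with R848, 5.54 with CpG B and 5.10 with poly I:C. The R848 and poly I:C arrays lay at the unstimulated level, and the HL7G arrays above all others. Its HL7G difference was 0.82 ± 0.21 (1.77-fold, adjusted p = 0.0406 in limma), and it lost the call once the mouse entered the fit as a block (adjusted p = 0.0776). Cd2, an adhesion molecule not limited to T cells, read 4.36 and 4.68 unstimulated, 5.86 and 5.33 with HL7G, 5.31 with R848, 5.08 with CpG B and 5.29 with poly I:C. The mouse 2 HL7G array was hardly above the R848 array. Cd2 rose 2.11-fold with HL7G (1.08 ± 0.26, adjusted p = 0.0339 in limma). Cd28, the costimulatory receptor for CD80 and CD86, read between 4.52 and 4.98 on the 7 arrays with its groups overlapping, and its HL7G difference was -0.09 ± 0.22 when every gene was tested (adjusted p = 0.807 in limma).

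The HL7G calls changed when 1 array was left out, most of all with the mouse 1 unstimulated array. Without it, 0 of the 8 tested markers and 2 of 11119 genes were called (2248 at an unadjusted p under 0.05), with 1 residual degree of freedom. The differences there were 1.97 for Cd3g, 2.46 for Il7r, 1.57 for Cd3d, 1.26 for Cd3e, 0.92 for Cd2 and 0.89 for Bcl11b. They could not fall below 0, since both HL7G arrays lay above both unstimulated ones for each marker. Without the mouse 2 unstimulated array 3 markers were called, Cd3d, Cd3g and Il7r, beside 862 genes. Leaving out the HL7G array of mouse 1 ended the calls of Bcl11b (0.91, adjusted p = 0.0550) and Cd2 (0.81, 0.0903) and gave Il7r 1.88, and leaving out that of mouse 2 ended the call of Bcl11b (0.74, 0.0599) and gave Il7r 3.27. Cd3d had 1.31 after loess and kept its call. HL7G was above unstimulated within each mouse for all 8 tested markers, which follows from the separation of the arrays. The difference was larger in mouse 1 for 6 of them, and the share among all genes was not counted. Cd3g differed by 2.38 in mouse 1 and 1.86 in mouse 2, Cd3d by 2.45 and 1.38, Cd3e by 1.65 and 1.06, and Il7r by 3.38 and 1.77. Of 5 abundant transcripts, 4 were lowest on the mouse 1 unstimulated array and Gapdh, a glycolytic enzyme, was highest there. Ptprc, which encodes CD45 of all leukocytes, read 4.06 and 5.44 unstimulated against 6.86 to 8.30 elsewhere, and Actb 5.02 and 6.81 against 7.77 to 9.34. Gapdh read 9.13 and 8.75 against 7.73 to 8.32, and was called lower with HL7G (-1.03 ± 0.25, adjusted p = 0.0317 in limma). Ptprc, B2m and Actb were called higher, by 3.44 ± 0.43, 3.27 ± 0.62 and 2.91 ± 0.59 (adjusted p = 0.0120, 0.0187 and 0.0210 in limma). Each of these exceeded the largest marker difference, 2.58 for Il7r. Eef1a1 had 2.55 ± 0.80 and was not called (adjusted p = 0.0679 in limma). Their part in the marker differences was not tested.

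**Figure D2:**
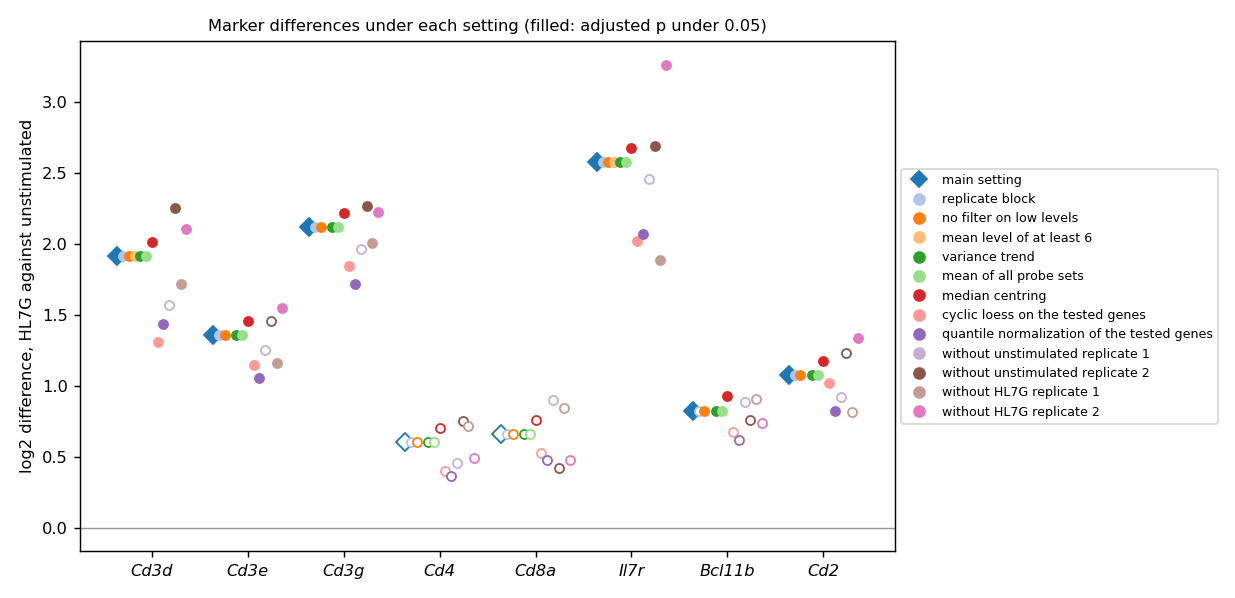
Log2 difference of HL7G against unstimulated (vertical axis) for the 8 tested T cell marker genes (horizontal axis) under the main setting (diamond) and 12 other settings (circles), filled where the adjusted p was under 0.05 in limma. All differences lie above 0, and without unstimulated replicate 1 all 8 symbols are open.

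Agonist differences from unstimulated were smaller than those with HL7G in each of the 8 tested markers, and these comparisons share the unstimulated arrays. Limma called 0 of 8 markers and 0 of 11119 genes (0%) with R848, CpG B or poly I:C, with 2550, 1370 and 1054 genes at an unadjusted p under 0.05. With R848 the difference was 1.36 ± 0.36 for Cd3d, 0.93 ± 0.28 for Cd3g, 0.79 ± 0.32 for Cd2 and 0.24 ± 0.29 for Cd3e (adjusted p = 0.107, 0.127, 0.206 and 0.660 in limma). With CpG B it was 1.13 ± 0.28 for Cd3g, 0.73 ± 0.36 for Cd3d, 0.61 ± 0.29 for Cd3e, 0.56 ± 0.32 for Cd2 and 0.45 ± 0.26 for Bcl11b. With poly I:C it was 1.07 ± 0.36 for Cd3d, 0.77 ± 0.32 for Cd2, 0.63 ± 0.29 for Cd3e and 0.44 ± 0.28 for Cd3g. The CD3 chains thus did not keep 1 order over the agonists: R848 gave the highest level of Cd3d, CpG B of Cd3g and poly I:C of Cd3e, each on 1 array. The Cd3d difference with R848 uses no HL7G array, so leaving either out could change only whether it passed. Cd4, Cd8a and Bcl11b lay between -0.10 and 0.20 with R848 and poly I:C. All 5 stimulated arrays lay above both unstimulated ones for 5 of 8 tested markers (Cd3d, Cd3e, Cd3g, Il7r and Cd2), beside 27.4% of all genes tested.

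HL7G was next set against the mean of the 3 agonists, a difference into which the unstimulated levels do not enter. They do enter the estimate of spread. The HL7G mean covers both mice and the agonist mean mouse 1 alone, so mouse and treatment are mixed in this difference. Both HL7G arrays lay above all 3 agonist arrays for 7 of the 8 tested markers, all but Il7r, beside 19.2% of all genes tested. Cd3g was higher by 1.28 (95% interval 0.79 to 1.78), Cd3e by 0.86 (0.35 to 1.38), Cd3d by 0.86 (0.22 to 1.498) and Bcl11b by 0.70 (0.24 to 1.17). For Cd8a the difference was 0.56 (-0.01 to 1.13), for Cd4 0.46 (-0.04 to 0.96), for Il7r 0.44 (-0.49 to 1.36) and for Cd2 0.37 (-0.20 to 0.94). None passed the test after adjustment in limma (Cd3g adjusted p = 0.338, the others 0.339 to 0.742), where 0 of 11119 genes were called (0%) and 1202 had an unadjusted p under 0.05. The median of the 8 was 0.63, beside 0.05 over all genes tested. Within mouse 1, Cd3g was higher with HL7G by 1.29 than with R848, 1.10 than with CpG B and 1.79 than with poly I:C, and Cd3e by 1.31, 0.94 and 0.92. Il7r had -0.26 when the HL7G array of mouse 1 was left out and 1.13 when that of mouse 2 was. Ptprc was higher by 1.23 ± 0.39 in this comparison, and its part in the marker differences was not tested.

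**Figure D3:**
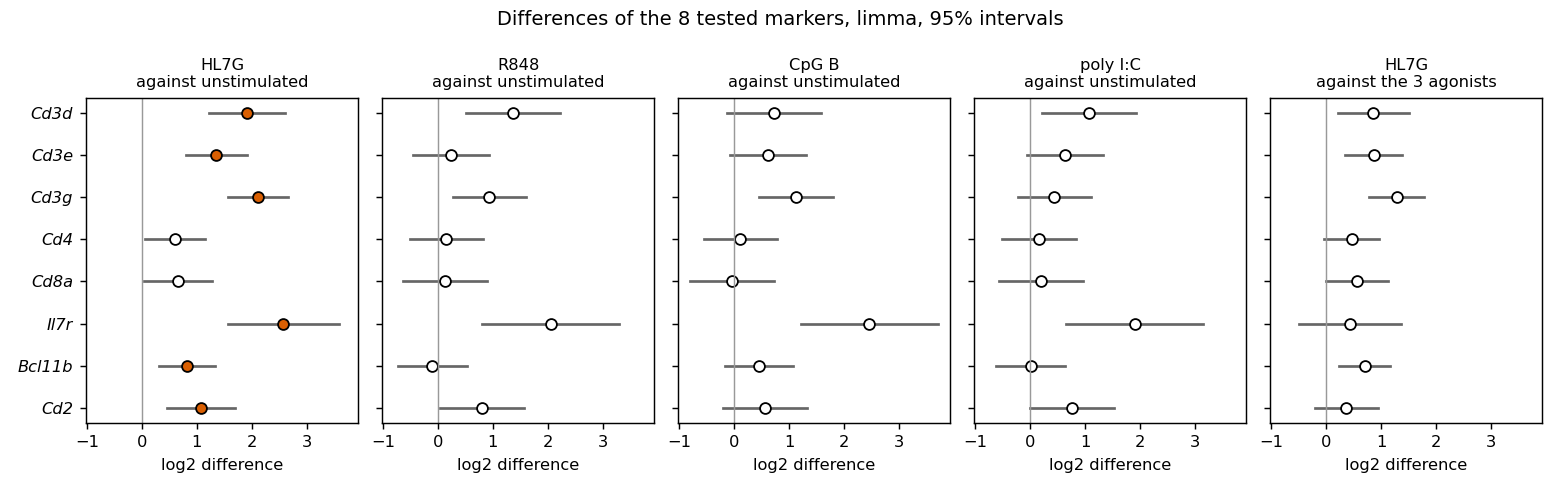
Log2 differences (horizontal axis) of the 8 tested T cell marker genes (vertical axis) in 5 comparisons, as points with 95% intervals from limma, filled where the adjusted p was under 0.05. The 6 filled points are all in HL7G against unstimulated, and Il7r lies near 2 or above for every stimulus.

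Genes that act downstream of the T cell receptor were followed in a list of 35, of which 26 were tested. Of these 15 were called higher with HL7G and 0 lower in limma (21 at an unadjusted p under 0.05), with a median of 1.03 beside 0.06 over all genes and 16.3% of all genes called higher. Of the 15, 8 (Zap70, Fyn, Txk, Ptpn22, Malt1, Rasgrp1, Sos1 and Dgkz) lay under 5 on both unstimulated arrays and entered the test only through stimulated ones, and Ptpn22 and Rasgrp1 reached 5 only with HL7G, so the count describes the genes that could be tested. Csk, the kinase that restrains Lck, rose by 1.65 ± 0.25, the exchange factor Vav1 by 1.60 ± 0.25, Malt1, a protease of the NF-kB branch, by 1.57 ± 0.29, and the phosphatase Ptpn22 by 1.40 ± 0.27 (adjusted p between 0.0123 and 0.0184 in limma). These 4 genes also act in B cells and myeloid cells. Among genes more particular to T cells, chosen after their values were seen, Zap70, the kinase that binds phosphorylated CD3 chains, rose by 1.09 ± 0.21 and the adaptor Lat by 0.88 ± 0.22 (adjusted p = 0.0193 and 0.0388 in limma). The surface scavenger receptors Cd5 and Cd6 had 0.09 ± 0.25 and 0.24 ± 0.23 (adjusted p = 0.801 and 0.478 in limma). Themis had 0.80 ± 0.23 and Skap1 0.43 ± 0.21, and neither was called (adjusted p = 0.0528 and 0.191 in limma). Trat1, Sit1, Sh2d1a and Ubash3a, also chosen after their values were seen, were under 5 on every array. Trat1 and Sit1 lay lower on both HL7G arrays than on both unstimulated ones, Ubash3a lay higher, and Sh2d1a overlapped. Zap70 read 4.53 and 4.70 unstimulated, 5.70 on both HL7G arrays and 5.10 to 5.21 with the agonists, so its groups did not overlap. In the agonist comparisons 0 of 26 were called, with Csk (1.41 with R848, 1.14 with CpG B, 1.15 with poly I:C) and Vav1 (1.17, 1.16 and 1.06) leading.

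Other genes of T cell identity gave 6 of 15 tested members called higher with HL7G and 0 lower in limma (9 at an unadjusted p under 0.05), of 27 listed, with a median of 0.88, beside 16.3% of all genes called higher. Ms4a4b reached 5 only with HL7G and entered the test through it. Lef1, a transcription factor of naive T cells, rose by 1.87 ± 0.23, Ms4a4b, a T cell membrane protein, by 1.81 ± 0.24, S1pr1, the receptor by which lymphocytes leave lymphoid tissue, by 1.60 ± 0.26, and Ccr7, a homing receptor of lymphocytes and activated dendritic cells, by 1.52 ± 0.34 (adjusted p between 0.0120 and 0.0268 in limma). Lef1 read 5.45 and 5.81 unstimulated, 7.42 and 7.56 with HL7G and 6.22 to 6.73 with the agonists. Like Cd3g it was highest on both HL7G arrays. Ccr7 was at 7.99 and 7.15 with HL7G and at 8.02, 8.20 and 7.24 with R848, CpG B and poly I:C, so its highest levels were not with HL7G. Satb1, a chromatin organiser of T cells, had 1.21 with R848. Thy1 (0.21), Gata3 (-0.42) and Tox (-0.38), named after their values were seen, were not called. Foxp3, Cd27, Icos, Ctla4 and Cd40lg stayed under 5 on every array.

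Ligands and partner chains of the markers had 3 of 7 tested members called higher with HL7G and 0 lower in limma (3 at an unadjusted p under 0.05), of 12 listed, with a median of 0.74, beside 16.3% of all genes called higher. Stat5b lay under 5 on both unstimulated arrays. Jak1, the kinase bound to the IL-7 receptor alpha chain, rose by 2.23 ± 0.33, Cd48, the ligand of CD2 in mice, by 1.64 ± 0.35, and Stat5b, which carries the IL-7 signal to the nucleus, by 1.42 ± 0.31 (adjusted p between 0.0123 and 0.0249 in limma). Cd86, a ligand of CD28, had 0.74 ± 0.33 (adjusted p = 0.159 in limma), and Cd80 and Il7 stayed under 5 on every array. With the agonists 0 of 7 were called, and Jak1 was the highest with 1.49, 1.55 and 1.02 for R848, CpG B and poly I:C.

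Markers of other spleen cells were read in the same way. The summed linear level of the 9 T cell markers was 262 to 289 on the unstimulated arrays, 634 to 821 with HL7G and 421 to 467 with the agonists. That of 10 B cell markers moved with it, at 281 to 334, 747 to 771 and 450 to 583, and 7 of 9 tested B cell genes were called higher with HL7G (median 1.33), beside 16.3% of all genes. Of these 7, Ms4a1, Fcer2a and Ebf1 lay under 5 on both unstimulated arrays and entered the test only through stimulated ones. That of 12 NK cell markers did not, at 323 to 346, 301 to 303 and 299 to 323, with 9 of the 12 under a level of 5 on every array. Of 13 monocyte markers, 5 were under 5 on every array (Ly6c2, Ccr2, Itgam, Fcgr1 and Ace). The sum was 406 to 445, 502 to 522 and 423 to 440, with 1 of 8 tested genes called (Lyz2). Lyz2 had the largest difference with HL7G, 1.79, beside a list median of 0.44. Of the 8 tested genes 6 were above 0, while Cx3cr1 had -0.82 and Cd300e -0.52. Dendritic cell markers, some of which share a cell with CD4 or CD8 alpha, had 673 to 965, 1368 to 1466 and 1194 to 1282 with 1 of 9 called (Irf8). Their median difference with HL7G was 0.13, with 6 of 9 tested genes above 0. The sums differed mainly by few genes. On the log2 scale Irf8 differed by 2.17, Bst2 by 1.75 and Cd209a by 0.87, and Tcf4 had 0.67. Cd209a, at 8.27 or above on every array, was the brightest of the list and so weighed most in the linear sum. Bst2 read 7.35 (mouse 1) and 4.54 (mouse 2) with HL7G and was not called (adjusted p = 0.162 in limma). The tested genes below 0 were Siglech, Batf3 and Zbtb46, with -0.57, -0.22 and -0.17. Innate lymphoid (168 to 173, 168 to 188, 144 to 182), neutrophil (220 to 235, 238 on both, 226 to 248), red pulp macrophage (233 to 240, 235 to 243, 229 to 235) and erythroid and platelet markers (183 to 198, 154 to 174, 150 to 172) had 0 tested genes called. Few of these could be tested, 1 of 6, 3 of 10, 4 of 9 and 4 of 6 genes with a probe set, so their sums lie mostly at dim levels and say little. The part of other cells in the T cell marker differences was not tested.

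**Figure D4:**
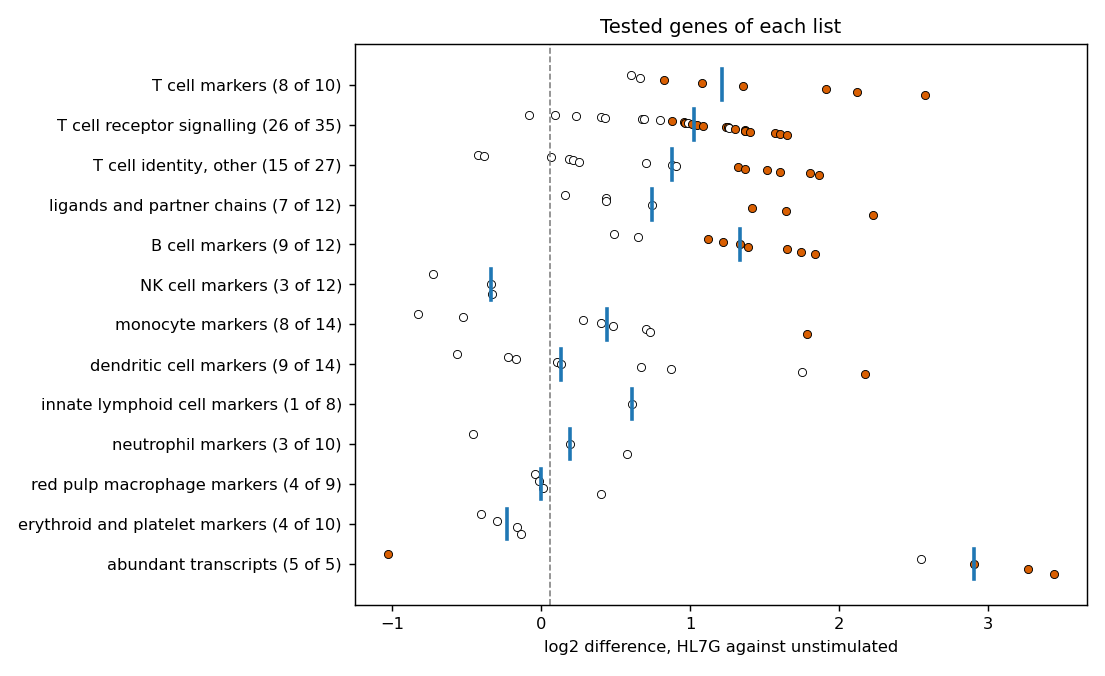
Log2 difference of HL7G against unstimulated (horizontal axis) for each tested gene of 13 lists (vertical axis, with the number tested of those listed), 1 point per gene, filled where the adjusted p was under 0.05 in limma. Vertical bars are list medians and the dashed line is the median of 0.06 over all genes. T cell, B cell and receptor signalling genes lie mostly to the right of the line, and NK cell genes to its left.

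The members also varied together to different degrees over the 7 arrays, which share 1 normalization and the low unstimulated arrays. Pearson's r was 0.930 between Cd3e and Cd3g, 0.903 between Cd3d and Cd3g and 0.971 between Cd3d and Cd2, and 0.933 between Il7r and Cd2. Cd8a followed Il7r less closely (0.384), and Cd28 ran against Il7r (-0.556). The 3 tested genes most like Il7r were Atp2a2 (0.996), Pim1 (0.995) and Wdr33 (0.994), those most like Cd3d were Dnajc14, Nono and Flii (0.996 each), and those most like Cd3g were Ubr2 (0.993), Cblb (0.992) and Pitpnc1 (0.992). These are descriptions over 7 points with no test.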

How the data were processed

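The authors deposited log2 levels, with a value for every probe set on each array. Per the submitters' processing notes, RMA, Transcriptome Analysis Console and Affymetrix Expression Console were used, without a version. Array medians over 41345 probe sets lay between 4.40 and 4.54. A probe table from GEO's platform annotation named 23521 probe sets with 1 gene, and Entrez identifiers of 23328 were found in RefSeq (GRCm38.p6). The brightest probe set per gene was used.

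All 7 arrays entered 1 limma fit (version 3.58.1, R 4.3.3) with 5 groups, 2-sided tests and Benjamini-Hochberg adjustment over 11119 genes with a level of at least 5 on 1 array. It had 2 residual and 4.94 prior degrees of freedom, and the number of arrays limits the precision. Groups with 1 array were assumed to vary like the others. Scripts were tested on simulated data. Arrays of 1 mouse come from the same animal, so mouse numbers pair the samples. Across genes, the mouse 2 minus mouse 1 difference of the unstimulated arrays had r = -0.146 with that of the HL7G arrays. Members and gene lists were chosen with earlier results of these data known. Every member was named, and in 3 related lists the 4 largest HL7G and 2 largest agonist differences. Other named genes, in these and the other lists, lie outside this rule, and not each is marked. The sources used here do not give the build of the array design or scan batches.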

Additional observations from a re-analysis of the deposited data

How the results depend on the processing

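All 8 tested markers kept a positive HL7G difference from unstimulated under the 12 other settings, where each could be tested. Both HL7G arrays lay above both unstimulated ones for each marker. Only settings that change the levels, median centring, loess and quantile normalization, could therefore have reversed the sign. Of the 6 called in the main setting, 5 were called with the mouse as a replicate block. Bcl11b lost its call there (0.82, adjusted p = 0.0776 in limma), and no other marker call changed. Bcl11b also lost it after cyclic loess (0.67, adjusted p = 0.0708) and quantile normalization (0.62, 0.0807) of the tested genes. A mean level of at least 6 left 1337 genes, 2 markers tested, both called, and 457 genes called. The number of genes called, 2024 in the main setting, ran from 2 to 3295 with 1 array left out, and that of markers from 0 to 5. The share of higher calls fell from 1814 of 2024 to 1372 of 1997 after loess and 1394 of 2421 after quantile normalization.

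With R848 the number of genes called was 5 with the replicate block, 95 with a variance trend, 51 after loess and 575 after quantile normalization (1 marker, Il7r, at 1.81), and 0 to 1541 (0 to 2 markers) with 1 array left out. With CpG B it was 2 with the trend, 2 after loess and 120 after quantile normalization (1 marker, Il7r, at 2.34), and 0 to 530 (0 to 1 marker) with 1 array left out. With poly I:C it was 2 with the block, 2 with the trend and 11 after quantile normalization, and 0 to 198 (0 to 1 marker) with 1 array left out. Against the agonists it was 0 in every setting.

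Small differences changed sign and were not called. Cd4 with R848 had -0.0141 after loess. Cd8a with CpG B had 0.0187 after median centring. Bcl11b with poly I:C had -0.0405 after loess and -0.0194 after quantile normalization. With 1 array left out, Cd8a ran from -0.107 to 0.374 with R848, from -0.272 to 0.209 with CpG B and from -0.0420 to 0.439 with poly I:C. Cd4 ran from -0.0340 to 0.262 with CpG B, Bcl11b from -0.0531 to 0.0728 with poly I:C and Il7r from -0.26 to 1.13 against the agonists. The cause of these changes was not tested. Leaving out 1 array leaves 1 residual degree of freedom. Median centring brought Cd28 past the level of 5.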
